A study of Mus musculus with 2 samples.

Results

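Fast excitatory transmission through kainate receptors depends on tetramers built from the products of the genes Grik1 to Grik5 and on the auxiliary proteins made from Neto1 and Neto2. The values of these 7 genes, which are all members by their gene symbol on the array's platform annotation, were compared between ribosome-bound RNA and unbound RNA of the mouse cerebellum. They are 7 of 19503 genes that the array names by a single symbol, and each was read by 1 probe set. The TRAP sample (translating ribosome affinity purification) and the unbound sample came from mice of the line Tg(Pcp2-L10a-Egfp) at postnatal day 7. In this line the promoter of Pcp2, a Purkinje cell gene, drives L10a, a protein of the large ribosomal subunit, joined to a green fluorescent tag. Antibodies against the tag pulled ribosomes with their mRNA out of homogenised, pooled cerebella, which gave the TRAP RNA. The unbound RNA is what the beads left behind, and it may still hold Purkinje cell RNA that was not caught, beside the RNA of every other cell. Both samples carry the transgene, no sample without it was analysed, and the number of animals in a pool is not given in the sources used here.

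Kainate receptors are glutamate-gated cation channels that act on both sides of a synapse. GluK1, GluK2 and GluK3, made from Grik1, Grik2 and Grik3, can each form a channel alone. GluK4 and GluK5, made from Grik4 and Grik5, bind agonist with higher affinity and reach the surface as functional channels only beside one of the other subunits. Neto1 and Neto2 are membrane proteins with CUB domains that slow the receptor's kinetics. In rodent cerebellum, in situ hybridisation placed Grik1 and Grik4 mainly in Purkinje cells, Grik2 and Grik5 in granule cells and Grik3 in molecular layer interneurons. Neto2 is also known from granule cells.

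Each fraction was measured on 1 array, so there is no replicate, no test and no p-value, and every difference compares 2 arrays. Differences are log2 TRAP minus log2 unbound, and a difference of at least 2-fold is used as a rule of size. In homogenised tissue, fewer cells of a type and less RNA per cell cannot be told apart, and here neither can be told apart from looser binding to tagged ribosomes. A floor was set at 7.08, the median of all values of both arrays, and 10524 genes exceeded it on at least 1 array. Of these, 8.11% were higher in TRAP by 2-fold or more and 18.6% were higher in unbound by as much. Those higher in TRAP were 30.4% of all that passed 2-fold, a split that became 58.6% when each array's median was subtracted, 46.7% after quantile normalization and 36.1% after a loess trend was removed. The TRAP array had the lower median, 6.92 against 7.25, so subtracting the medians moved every difference up by 0.33. Pcp2 itself read 12.98 in TRAP and 11.65 in unbound. All 16 Purkinje cell markers with a value had the higher reading in TRAP, and 9 passed 2-fold; their median difference was 1.14. All 16 markers of postmitotic granule neurons passed 2-fold in the other direction, and their median was -2.15. With the medians subtracted, 14 Purkinje and 13 granule neuron markers passed.

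The 7 genes were divided between the fractions. Grik1 and Grik4 were at least 2-fold higher in TRAP, which makes 2 of 7 beside the 8.11% of all genes above the floor. Grik2, Grik3 and Neto2 were at least 2-fold higher in unbound, which makes 3 of 7 beside 18.6%. Grik5 and Neto1 differed by less than 2-fold. With a rule of 1.5-fold the counts were again 2 and 3, beside 18.8% and 30.9% of all genes above the floor. With a rule of 4-fold, 0 members passed in TRAP, beside 0.741%, and Grik2 was the 1 member that passed in unbound, beside 4.34%. All 7 genes passed the floor, but Grik1 passed it only through TRAP, and Grik2 and Grik3 only through unbound. The counts therefore describe the family and support nothing by themselves. Over the 7 genes the median difference was -0.52, and over all genes above the floor it was -0.13.

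**Figure D1:**
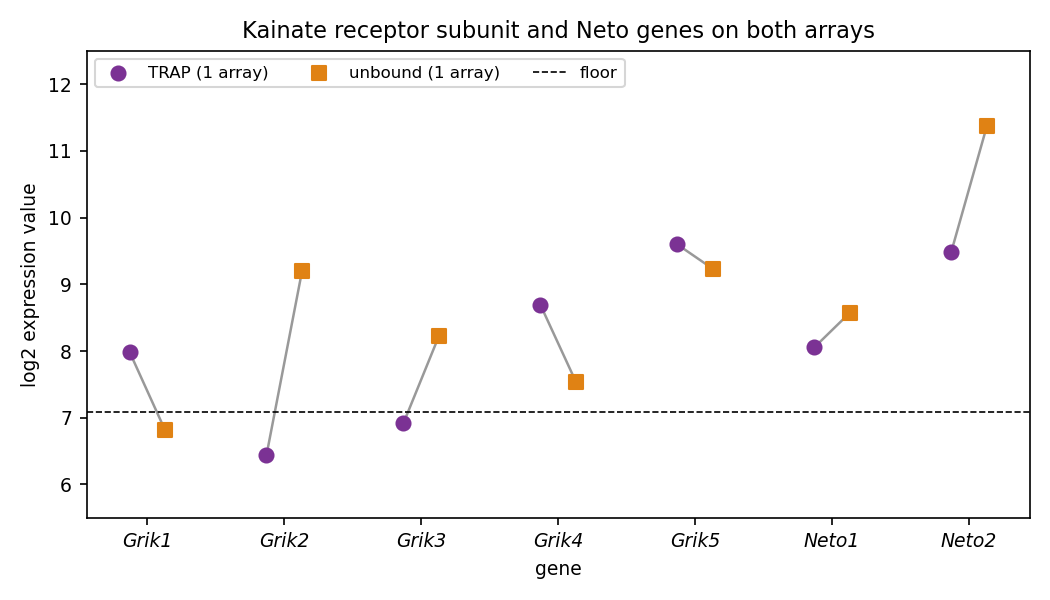
Log2 expression value (vertical axis) of the 7 genes (horizontal axis) on the TRAP array (circles) and the unbound array (squares), 1 array each, with a line joining the values of a gene and a dashed line at the floor of 7.08. Grik1 and Grik4 slope down towards unbound by 1.18 and 1.16, while Grik2, Grik3 and Neto2 slope up; heights of different genes come from different probes and are not comparable.

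Grik1, which encodes the subunit GluK1, read 7.99 in TRAP and 6.81 in unbound. Its unbound value lay under the floor, where the table gives no detection call. The difference of 1.18 is a 2.26-fold higher value in TRAP, and 555 of the 10524 genes above the floor had a larger one. With values under the floor raised to it, the difference was 0.91, short of 2-fold.

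Grik4, which encodes the high-affinity subunit GluK4, read 8.69 in TRAP and 7.54 in unbound, both above the floor. The difference of 1.16 is 2.23-fold, and 587 genes had a larger one. Grik4 lay 0.02 below Grik1 in this measure as deposited, and 0.25 above it with values raised to the floor. For each of them 8 of the 16 Purkinje cell markers had a smaller difference and 8 a larger one. After quantile normalization or loess removal it was 10 and 6 for both. With values raised to the floor it stayed 8 and 8 for Grik4, but became 4 and 12 for Grik1, whose unbound value lay under the floor. Both also lay above all 16 granule neuron markers. The nearest Purkinje markers in this measure were Calb1, the calcium buffer calbindin, with a difference of 1.05, and Cacna1g, a T-type calcium channel gene, with 1.23.

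Grik2, which encodes GluK2, read 6.44 in TRAP and 9.20 in unbound, the TRAP value under the floor. Its difference of -2.76 is a 6.79-fold higher value in unbound, and 70 genes above the floor lay lower. Raised to the floor in TRAP, Grik2 still differed by -2.12. Of the 16 granule neuron markers, 3 lay lower than Grik2 and 13 higher, or 8 and 8 with values raised to the floor. Grik2 also lay inside the ranges of the interneuron, unipolar brush and nuclear neuron, astrocyte and oligodendrocyte markers, so its difference does not single out granule neurons. Cbln3, a granule cell cerebellin gene, differed by -3.05 and Gabra6, a GABA-A receptor gene known from granule cells, by -2.78. The gap between Grik1 and Grik2 was 3.94 on the log2 scale as deposited. It uses a value under the floor on each side, and was 3.03 with values raised to the floor.

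Grik3, which encodes GluK3, read 6.92 in TRAP and 8.23 in unbound, the TRAP value again under the floor. The difference of -1.31 is 2.48-fold. It shrank to -0.98 when the array medians were subtracted and also to -0.98 after quantile normalization, both just short of 2-fold. Of the 8 inhibitory interneuron markers above the floor, 4 lay below Grik3 and 4 above it as deposited. Like Grik3, 4 of these 8 markers had TRAP values under the floor. With values raised to the floor Grik3 differed by -1.15, and fewer of the 8 lay below it. Pax2, the transcription factor gene of young interneurons, differed by -1.27. Grik3 also lay inside the range of the granule neuron, progenitor, glial and oligodendrocyte markers, so its difference does not single out a cell type.

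Grik5, which encodes the other high-affinity subunit, GluK5, read 9.60 in TRAP and 9.23 in unbound, both above the floor. The difference of 0.37 is 1.29-fold, or 0.49 above the median of all genes above the floor. Grik5 lay below all 16 Purkinje markers, of which Pcp4, a calmodulin regulator, was the lowest at 0.49. It lay above all 16 granule neuron markers, of which Zic1, a transcription factor gene, was the highest at -1.07. After quantile normalization, and after the loess trend was removed, 2 Purkinje markers lay below it. Within the high-affinity pair, Grik4 exceeded Grik5 by 0.79.

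Of the auxiliary genes, Neto2 read 9.49 in TRAP and 11.37 in unbound, both above the floor. Its difference of -1.89 is a 3.70-fold higher value in unbound, and 556 genes lay lower. It lay inside the range of the granule neuron markers, of which 9 lay lower and 7 higher, and Chn2, a chimaerin gene on that list, differed by -1.87. It lay equally inside the ranges of the progenitor, interneuron, unipolar brush and nuclear neuron, astrocyte and oligodendrocyte markers. Neto1 read 8.05 in TRAP and 8.57 in unbound. The difference of -0.52 is 1.43-fold and lay between all 16 Purkinje markers above it and all 16 granule neuron markers below it. Neto1 exceeded Neto2 by 1.37 in this measure.

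How far a difference can depend on the probe set was gauged from genes with more than 1 probe set. Over 444 genes above the floor with 2 probe sets, the differences of both probe sets lay a median of 0.20 apart, and 90% lay within 0.83. The values of Grik5 and Neto1 are smaller than this 90% limit and those of the other 5 genes larger. The gap of 0.79 between Grik4 and Grik5 is also smaller than it. Probe sets of a gene share the RNA and the array, so this spread is no replicate error. A difference larger than the limit is therefore not shown to be reliable, and those of Grik1, Grik2 and Grik3 each use a value under the floor.

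**Figure D2:**
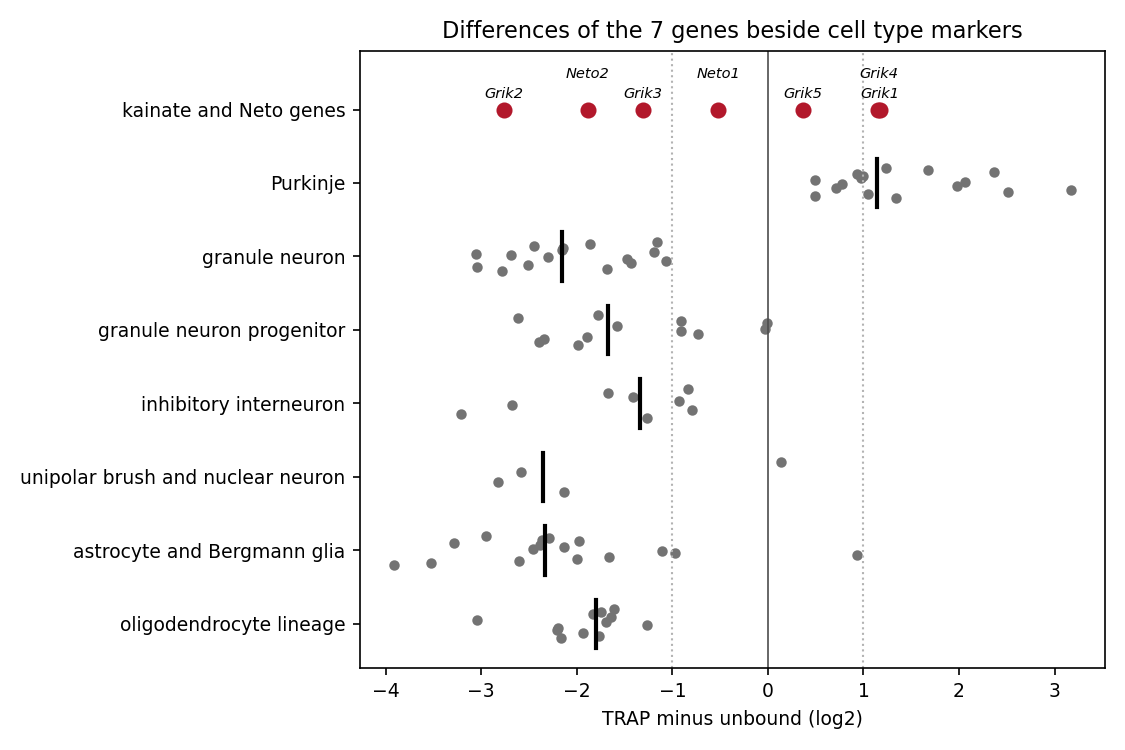
TRAP minus unbound on the log2 scale (horizontal axis) for the 7 genes (top row, named) and for cell type markers above the floor (grey points, 1 per gene, with a black bar at each list's median). Dotted lines mark 2-fold; Grik1 and Grik4 stand at 1.18 and 1.16 among the Purkinje markers, whose median was 1.14, and Grik2 at -2.76 among markers that were higher in unbound.

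Markers of the other cell types moved with the genes that were higher in unbound, and their part in those differences was not tested. Granule neuron markers read between 6.62 and 11.84 in TRAP and between 8.72 and 12.91 in unbound, with a summed linear signal of 13821 in TRAP and 44401 in unbound. For granule neuron progenitors, all 12 markers read higher in unbound and 7 passed 2-fold; the median was -1.68, with sums of 6537 in TRAP and 14704 in unbound. Mycn and Sfrp1, which regulate growth and Wnt signalling in those progenitors, were near 0 (-0.03 and -0.01) and became positive with the medians subtracted, Mycn also after quantile normalization. For inhibitory interneurons, all 8 markers above the floor read higher in unbound and 5 passed 2-fold. The median was -1.34, with sums of 1520 in TRAP and 4844 in unbound. Of these 8 markers, 4 passed the floor only through unbound, which fixed their direction. With values raised to the floor 3 passed 2-fold and the median was -0.82. The 2 interneuron markers under the floor on both arrays differed in opposite directions. For astrocytes and Bergmann glia 14 of 16, and for the oligodendrocyte lineage 12 of 12, passed 2-fold in favour of unbound, and the medians were -2.33 and -1.80. Their sums were 10510 in TRAP and 32825 in unbound for the glial list and 3108 in TRAP and 11334 in unbound for the oligodendrocyte list. For unipolar brush cells and nuclear neurons it was 3 of 4, with a median of -2.36 and sums of 649 in TRAP and 2740 in unbound. Exceptions on these lists were Hopx, a glial homeodomain gene, at 0.93 and Otp, a homeobox gene, at 0.14. Of the microglia list 2 markers passed the floor and of the endothelial list 1, and all 3 read higher in unbound as deposited. The 2 microglia markers passed only through unbound, so the floor fixed their direction. Of the 6 microglia and 5 endothelial markers under the floor on both arrays, most but not all read higher in unbound. Trem2, a microglial receptor gene, differed by -0.30 and became positive with the medians subtracted or after quantile normalization. On the TRAP array 2 of the 16 granule neuron markers, 1 of the 12 progenitor markers and 4 of the 8 interneuron markers lay under the floor. So did 1 of the 4 unipolar brush and nuclear neuron markers and 5 of the 16 glial markers. The same held for 5 of the 12 oligodendrocyte and 2 of the 2 microglia markers. These markers passed the floor only through unbound, so the floor itself fixed their direction. Neurod1, a granule lineage transcription factor gene, still read 10.14 in TRAP, against 12.65 in unbound.

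Promoter sequences are shown for a gene of each direction and for the gene with the most GC boxes, so that the letters upstream of genes of opposite direction can be compared. They are the 250 bases before the gene start from RefSeq for the mouse assembly GRCm38.p6, written 5′ to 3′ along the gene. Windows were read for 5 of the 7 genes, and those of Grik1 and Neto1 were not analysed. Capitals mark the GC box GGGCGG, found on either strand. Grik4 lies at chr9:42944372-42944621, minus strand, Grik2 at chr10:49788755-49789004, minus strand, and Grik3 at chr4:125490446-125490695, plus strand.
Grik4: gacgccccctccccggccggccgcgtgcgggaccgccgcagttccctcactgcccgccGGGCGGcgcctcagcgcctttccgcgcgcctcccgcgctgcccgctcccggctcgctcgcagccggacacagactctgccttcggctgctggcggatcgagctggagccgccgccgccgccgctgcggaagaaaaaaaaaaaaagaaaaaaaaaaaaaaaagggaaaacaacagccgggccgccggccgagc
Grik2: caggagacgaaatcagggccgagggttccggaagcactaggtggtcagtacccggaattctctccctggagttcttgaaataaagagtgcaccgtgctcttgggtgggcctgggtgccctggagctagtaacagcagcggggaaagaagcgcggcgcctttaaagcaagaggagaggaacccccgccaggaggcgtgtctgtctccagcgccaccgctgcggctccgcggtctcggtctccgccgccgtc
Grik3: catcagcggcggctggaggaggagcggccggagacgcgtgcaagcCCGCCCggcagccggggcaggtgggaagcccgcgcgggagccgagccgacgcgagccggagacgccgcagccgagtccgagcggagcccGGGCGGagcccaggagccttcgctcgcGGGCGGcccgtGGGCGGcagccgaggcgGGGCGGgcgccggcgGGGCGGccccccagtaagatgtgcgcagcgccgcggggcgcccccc

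The GC box occurred 1 time before Grik4, 0 times before Grik2 and 6 times before Grik3, and 32.8% of 32841 promoter windows of this length held at least 1. A link between these counts and the differences was not tested. The E-box CANNTG, which reads the same on both strands and is present in 66.2% of windows, occurred 1 time before Grik3 and 0 times before Grik4 and Grik2. AGGTCA, the half-site of the orphan receptor that Rora encodes, was searched on both strands and stood in none of these 3 windows, compared with 14.0% of all windows. CpG dinucleotides numbered 36 before Grik4, 20 before Grik2 and 42 before Grik3, compared with a median of 6 over all windows. The other windows of members held 8 CpG, 0 E-boxes and 2 GC boxes before Grik5. At the 2 listed starts of Neto2 they held 0 and 30 CpG, 3 and 1 E-boxes, and 0 and 2 GC boxes. AGGTCA stood in none of these other windows.

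Among the ionotropic glutamate receptor genes, the kainate subunits held both the highest differences and nearly the lowest. Of the AMPA, NMDA and delta receptor subunits on the list, 11 had a value and 8 were above the floor. With the 5 kainate subunits this made 13 genes, of which Grik1 and Grik4 had the highest differences as deposited. Of the 8 other genes, 0 passed 2-fold in TRAP, beside 8.11% of all genes above the floor, and 4 in unbound, beside 18.6%. The median of these 8 was -0.98. The AMPA receptor genes Gria1, Gria2 and Gria3 differed by -0.89, -1.07 and -0.77. Gria4, an AMPA subunit gene, read 6.73 in TRAP and 9.77 in unbound, the lowest of the 13, with Grik2 next to it. Grin2b, the NMDA receptor subunit gene of young neurons, read 6.79 in TRAP and 9.38 in unbound. Grin2d, another NMDA subunit gene of young brain, was the only one of the 8 with a higher value in TRAP, 7.81 against 7.41. Its difference of 0.40 stood beside the 0.37 of Grik5. Grin3a differed by -1.07 and Grid1, a delta receptor gene, by -0.39. Gria4, Grin2b, Grin3a and Grid1 lay under the floor in TRAP and passed it only through unbound. The floor itself therefore fixed their direction. With values raised to the floor Grin3a differed by -0.67. Grin2a, Grin2c and Grin3b, under the floor on both arrays, differed by -0.82, 0.18 and 0.39. Gria2 and Grin3a fell short of 2-fold under each of the 3 other scalings.

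AMPA receptor auxiliary genes gave a comparison for the Neto pair. All 12 were above the floor, and their median was -0.42. In TRAP 1 passed 2-fold, beside 8.11% of all genes above the floor, and in unbound 1, beside 18.6%. Neto2 lay below all 12. The nearest was Cacng3, a TARP gene, which read 7.24 in TRAP and 8.76 in unbound, a difference of -1.52. Neto1 lay among them, between Gsg1l with -0.49 and Cacng5 with -0.53. At the other end Shisa6, an AMPA receptor auxiliary gene of the cystine-knot family, read 11.60 in TRAP and 9.99 in unbound, and Cacng2, the gene of stargazin, read 12.36 in TRAP and 11.93 in unbound.

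**Figure D3:**
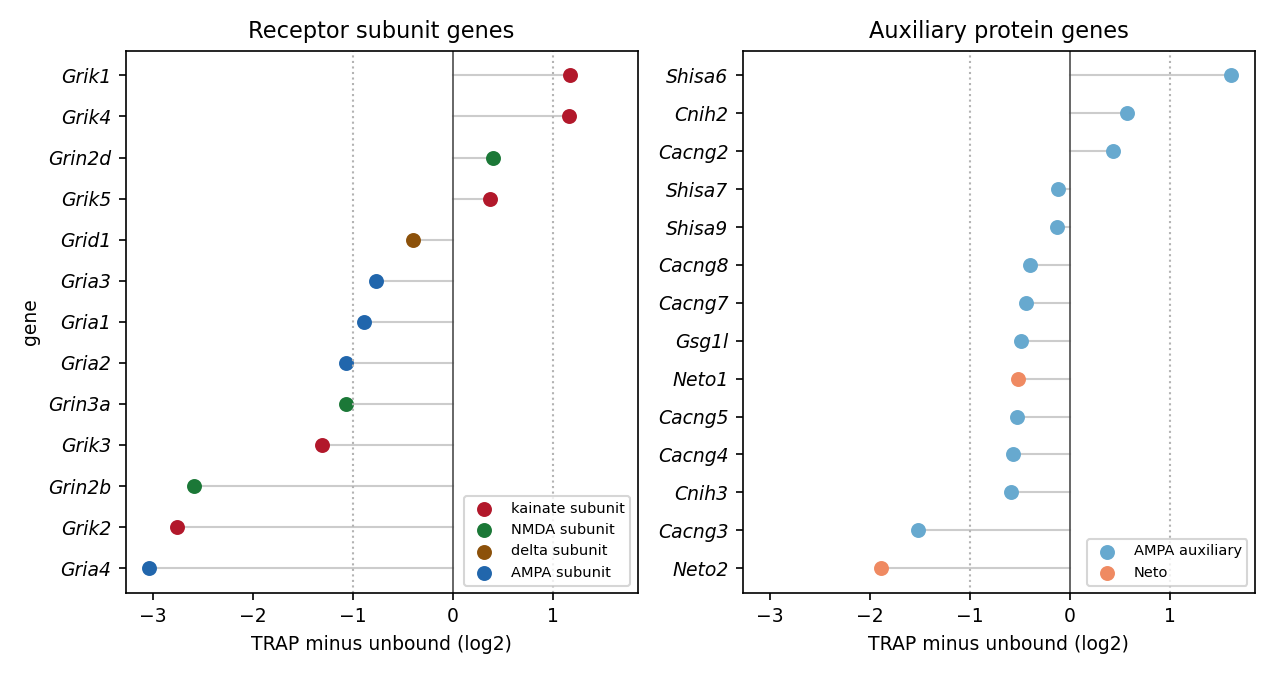
TRAP minus unbound on the log2 scale (horizontal axis) for 13 ionotropic glutamate receptor subunit genes (left) and 14 auxiliary protein genes (right) above the floor, ordered by difference and coloured by family, with dotted lines at 2-fold. Grik1 and Grik4 stand at the top of the left panel and Neto2, at -1.89, at the bottom of the right one.

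Genes whose products hold, recruit or modify kainate receptors read higher in TRAP for some members and higher in unbound for others. Of 20 such genes, 16 had a value and 15 were above the floor; 1 passed 2-fold in TRAP, beside 8.11% of all genes above the floor, and 6 in unbound, beside 18.6%. The median was -0.09. With values raised to the floor 0 passed in TRAP, beside 7.07% of all genes. With the medians subtracted 2 did, beside 16.4%, with 4 in unbound, beside 11.6%. Among the scaffolds, Grip2 and Grip1 encode PDZ proteins that bind kainate and AMPA receptor subunits. Grip2 read 8.01 in TRAP and 6.62 in unbound, the unbound value under the floor, and Grip1 read 9.48 in TRAP and 8.70 in unbound. Their differences were 1.39 and 0.79. With values raised to the floor Grip2 differed by 0.93, short of 2-fold, and with the medians subtracted Grip1 reached 1.12. Of the membrane-associated guanylate kinases, Dlg4, the gene of PSD-95, read 11.45 in TRAP and 11.42 in unbound. Its difference of 0.03 turned negative after quantile normalization and after the loess trend was removed. Dlg2 and Dlg3 differed by 0.38 and 0.11. Dlg1, the gene of SAP97, differed by -2.12, and Cask, the gene of a presynaptic member of that family, by -1.07.

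Klhl24 encodes KRIP6, a protein that binds GluK2 and alters its gating. It read 9.05 in TRAP and 10.89 in unbound, a difference of -1.84 beside the -2.76 of Grik2. C1ql3 encodes a secreted C1q-like protein that binds kainate receptors at hippocampal mossy fibre synapses. It read 6.40 in TRAP and 8.41 in unbound, the TRAP value under the floor. Cdh2, the gene of N-cadherin, which forms complexes with GluK2, differed by -1.15, and Ctnnb1, the gene of beta-catenin, by 0.18. With the medians subtracted, Cdh2 and Cask no longer reached 2-fold. Snap25, a SNARE gene whose product binds GluK5, differed by -0.16, or 0.17 with the medians subtracted.

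Enzymes that act on kainate receptor subunits or their transcripts were measured in part. Adarb1, the gene of the deaminase ADAR2 that edits the pore codon of Grik1 and Grik2 transcripts, read 10.50 in TRAP and 10.18 in unbound, a difference of 0.32. Adar, the gene of the related ADAR1, differed by -0.09, and became positive with the medians subtracted or after quantile normalization. Senp1, a SUMO protease gene, differed by -1.71; SUMO is attached to GluK2. The array values do not tell edited from unedited transcripts.

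The protein-coding genes most like each member were found by the Euclidean distance between their log2 values over both arrays, among 10298 protein-coding genes above the floor. Gskip and Fam136a were closest to Grik4, at distances of 0.04 and 0.08, and Ccdc107 and Bcor to Grik1, at 0.06 for each. Cenpf and Kif18b were closest to Grik2, at 0.10 and 0.12, with differences of -2.87 and -2.61. Rnf149 and Mal2 were closest to Grik3, Bbs4 and Zfp691 to Grik5, Zfyve28 and Carnmt1 to Neto1, and Msi1 and Rtn3 to Neto2, at distances between 0.0019 and 0.10. This likeness rests on 2 values a gene, sets readings of different probes side by side, and for Grik1, Grik2 and Grik3 uses a value under the floor, so it describes the readings only.

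**Figure D4:**
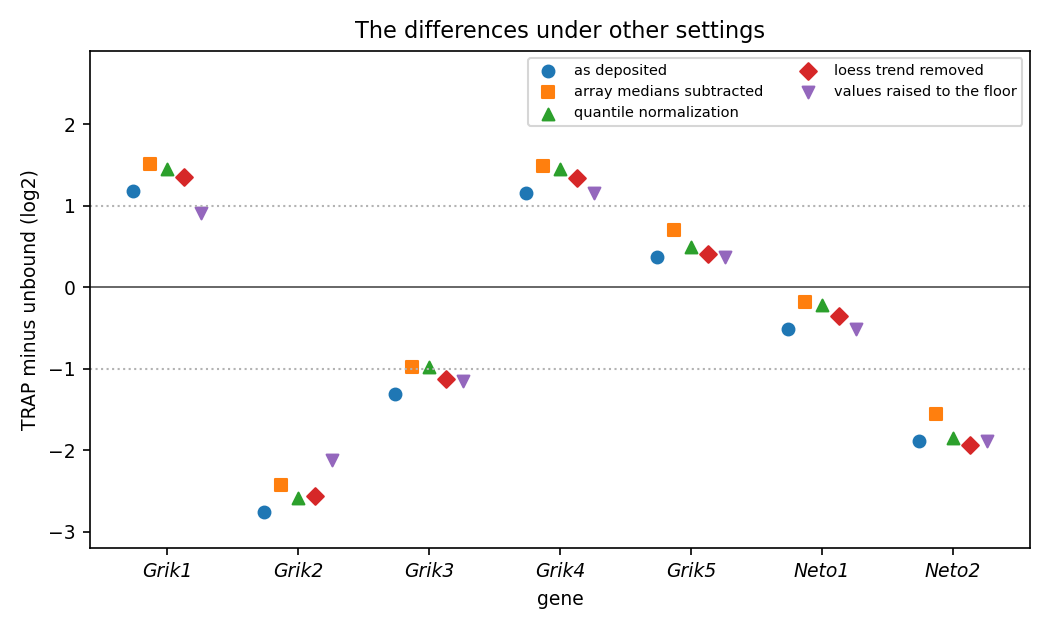
TRAP minus unbound on the log2 scale (vertical axis) for the 7 genes (horizontal axis) as deposited, under the other scalings, and with values under the floor raised to it (1 symbol per setting, dotted lines at 2-fold). No gene changes sign; Grik1 spans 0.91 to 1.51, Grik2 -2.76 to -2.12 and Grik3 -1.31 to -0.98.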

How the data were processed

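Affymetrix whole-transcript arrays measured 1 TRAP and 1 unbound sample. The authors deposited 1 value per probe set and array, which was read here as log2 because the highest is 13.65. The submitters' processing notes name Affymetrix Power Tools. No source used here gives its version, the background correction, the normalization, the summary method or the log base. The array number limits the precision. Of 22097 probe sets, 20999 name 1 gene, 91 name several and 1007 are unnamed here. Probe sets were averaged per gene. Symbols were checked by Entrez identifier against RefSeq (GRCm38.p6), which matched 20959 probe sets.

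Differences, counts and medians were computed with Python 3.11.15, pandas 2.3.3 and statsmodels 0.14.6, with no further scaling. Scripts were tested on simulated data. The members and the 16 other gene lists (9 of cell type markers, 7 of receptors and partners) were chosen with earlier results of these data known. The genes that may be named are the members, Pcp2, receptor and partner genes, up to 2 genes from each end of the other lists, and the 2 genes most like each member. Markers named for lying near a member, and Neurod1, were chosen after their values were seen. List genes without a value, and protein identity between members, were not analysed here.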

Additional observations from a re-analysis of the deposited data

How the results depend on the processing

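No member changed sign when the array medians were subtracted, after quantile normalization, after removal of a loess trend (span 0.3), with values raised to the floor, or with the brightest probe set per gene. Calls by the 2-fold rule were lost for Grik1 with values raised to the floor (0.91) and for Grik3 with the medians subtracted or after quantile normalization (both -0.98). The count higher in TRAP, 2 as deposited, became 1 with values raised to the floor and 0 with a floor at the 75th percentile or a 4-fold rule. The count higher in unbound, 3 as deposited, became 1 with the 4-fold rule. It was 2 with the medians subtracted, after quantile normalization and with the floor at the 75th percentile, which 3 members passed. Without a floor, with the floor applied to each gene's mean, or with a 1.5-fold rule the counts stayed at 2 and 3. With the 75th percentile floor, the median of the kainate subunits became -1.20, that of the AMPA auxiliary genes 0.43 and that of the scaffolds -0.065. The scaffold median was also negative after quantile normalization (-0.012) and loess removal (-0.092). The median of the editing and SUMO genes turned to 0.25 with the medians subtracted and 0.038 after quantile normalization, and that of all partners to 0.25 with the medians subtracted. Grik1, Grik3 and Grik4 lay under the 75th percentile floor of 9.01 on both arrays and were not counted there. At that floor the kainate subunit median rests on Grik2 and Grik5 alone. With values raised to the floor, the unbound value of Grik1 went from 6.81 to 7.08. Subtracting the medians moved every difference up by 0.33. The cause of the other changes was not tested. No paired analysis was possible because each fraction has 1 array, and for the same reason no array could be left out.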
